A study of Rattus norvegicus with 6 samples.

Results

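The 10 genes described here, Rgs1, Rgs2, Rgs3, Rgs10, Rgs12, Rgs13, Rgs14, Rgs16, Rgs18 and Rgs19, encode regulators of G protein signalling (RGS proteins). They were found by their symbols among 18284 genes of an RNA-seq table, and 9 of them were among the 10665 genes whose mean over the 6 libraries reached 1 RPKM (read number scaled to exon length and library size). The set was selected on measured values of the contrast reported here, so the members' differences, and the count of them past the threshold, are a description; no p-value is given for a member and nothing is supported with them. The cells were RBL-2H3, a rat basophilic leukemia line widely used as a mast cell model. Total RNA was sequenced from 3 control libraries, whose treatment label is none, and 3 libraries treated with DHC (dihydrocoumarin, a plant lactone obtained from sweet clover), for which the labels give no dose or duration; the study asks how DHC affects IgE-dependent mast cell activation. A single protocol is attached to all 6 libraries: anti-DNP IgE at 50 ng/ml for 12 h, a wash, then DNP-HSA antigen at 100 ng/ml for 4 h. The controls' own label of none leaves it unclear whether they received IgE and antigen, and the series' design text calls them untreated. The labels do not state separate cultures for the replicates; every p-value below therefore measures spread among these 6 libraries only, and that spread may be technical.

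RGS proteins shorten G protein signals. A G protein coupled receptor that is engaged by its ligand loads GTP onto the alpha subunit of a heterotrimeric G protein, and the RGS domain speeds the hydrolysis of that GTP so that alpha and beta-gamma subunits reassociate. In mast cells, receptors for adenosine, chemokines, nucleotides and lipid mediators signal through G proteins alongside the IgE receptor, which itself acts through tyrosine kinases. The small R4 members (Rgs1, Rgs2, Rgs13, Rgs16, Rgs18) consist of little more than the RGS domain, whereas Rgs12 and Rgs14, of the R12 class, carry further domains that bind Ras-family proteins and inactive Gi alpha subunits.

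The libraries held 29084976 to 34170922 reads, recovered from the steps of the RPKM values, so 3 reads correspond to 0.0878 to 0.103 RPM, the level per library size alone. With limma and Benjamini-Hochberg adjustment over the 10665 genes, 1717 genes (16.1%) were lower and 1968 (18.5%) higher with DHC at an adjusted p below 0.05. Scaling by trimmed means turned this split into 2114 lower and 1284 higher, and without DHC library 2 the number higher was 1200. The labels call the tissue peripheral blood and the cell type blood corpuscle. Of 15 mast cell and basophil markers listed, 12 had a row and 10 reached 1 RPKM. The protease genes Tpsab1, Mcpt2 and Mcpt10 had no row. Tpsb2 had 2 reads in control library 2 alone, and Cma1 averaged 0.6655 RPKM in control and 0.4322 RPKM in DHC cells. The protease genes Cpa3 and Mcpt1 did reach 1 RPKM. The list's summed level was 1295 to 1355 RPKM in control and 1025 to 1040 RPKM in DHC libraries. Its members went both ways: of those named here after their values were seen, the mast cell transcription factor Gata2 went from 344.6 ± 10.3 to 69.93 ± 1.9 RPKM, Il1rl1, the IL-33 receptor, from 48.47 ± 2.75 to 14.87 ± 0.119 RPKM and Kit, the stem cell factor receptor, from 114.7 ± 7.36 to 64.45 ± 4.02 RPKM. Ms4a2, the beta chain of the IgE receptor and highest of the list over all 6 libraries, went from 320.9 ± 15.9 to 368.5 ± 10 RPKM, and Fcer1a, its alpha chain, measured 106.7 ± 4.46 and 109.8 ± 9.46 RPKM. The platelet list summed to 943.8 to 1117 RPKM in control and 979.9 to 1193 RPKM in DHC libraries, nearly all of it Pf4. The T cell list, of which Cd3e alone passed 1 RPKM, summed to 31.75 to 37.54 and 40.6 to 43.77 RPKM. The fibroblast list summed to 22.6 to 24.51 and 20.63 to 23.5 RPKM, nearly all of it Col3a1. The endothelial list summed to 9.476 to 10.66 and 8.032 to 8.392 RPKM, most of it Tek. Macrophage and monocyte, erythroid and epithelial lists summed to at most 2.411, 0.7963 and 2.458 RPKM in any library. All 18284 genes had a value above 0 in at least 1 library, so no marker with a row could be at 0 throughout. Of 5 markers listed each for B cells, neutrophils, erythroid cells and fibroblasts, 2 had a row, and markers without a row have no value here. B cell and neutrophil markers summed to at most 0.3756 and 0.01987 RPKM, and the part of these lists in the differences below was not tested. In bulk RNA, fewer cells of a type and less RNA per cell cannot be told apart.

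The RGS transcripts of these cells were dominated by Rgs2 and Rgs1, and their summed level was lower with DHC. Over the 14 genes with an Rgs-number symbol and a row, the sum was 1838, 1567 and 1690 RPKM in the control libraries and 447.3, 385.7 and 394.5 RPKM in the DHC libraries. The mean sum went from 1698 ± 136 to 409.2 ± 33.3 RPKM (SD, n = 3 each), a 4.15-fold difference. Without Rgs2, Rgs1 and Rgs18 the remaining genes summed to 60.08 ± 2.45 RPKM in control and 39.97 ± 1.61 RPKM in DHC cells, a 1.5-fold difference. In 8 of the 9 measured members, every DHC library was below every control library, a pattern that 21.6% of all tested genes showed. Of the 9, 6 were lower and 0 higher at the threshold, beside 16.1% and 18.5% of all genes, and 3 were at least 2-fold lower in mean RPKM, beside 3.11%. The rule used this contrast, so nothing is read from these counts. Each of the 9 had a mean of at least 1 RPKM in both groups. The median difference of the 9 was -0.67 on the log2(RPKM + 1) scale, beside 0.05 for all tested genes. On that scale, used for every log2 difference here, the change of a low gene is understated, whereas fold values are ratios of mean RPKM.

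**Figure D1:**
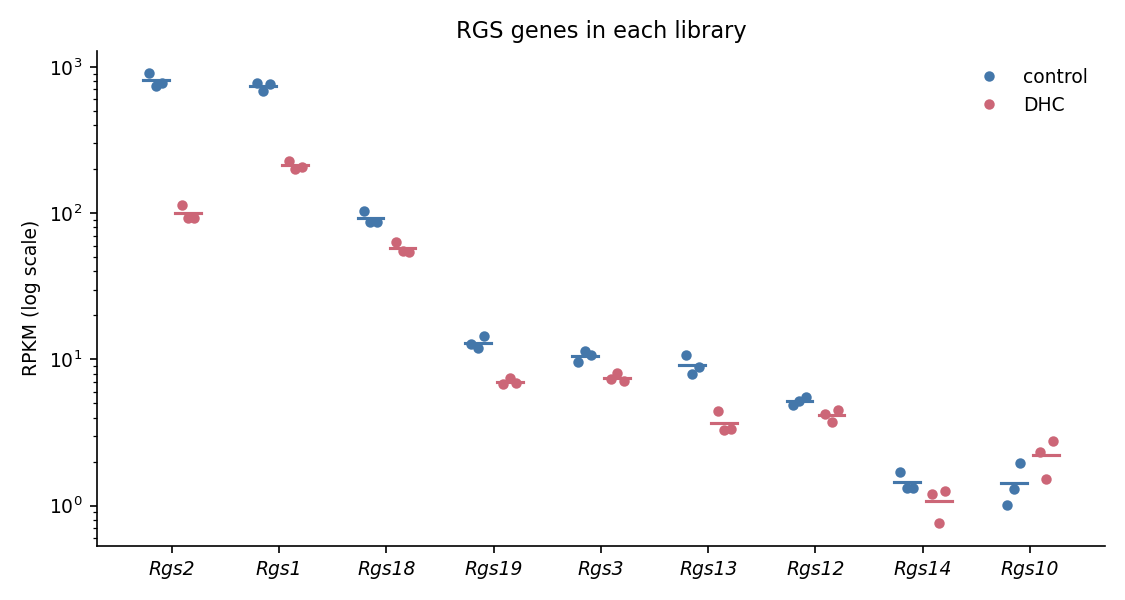
Level of the 9 measured RGS genes of the set in each library, in RPKM on a log axis; each point is 1 library, control or DHC, and short lines are group means. The Rgs2 points of DHC cells lie at 92.02 to 114.3 RPKM, below all control points at 739.5 to 904 RPKM, and among members at 1 RPKM or more only Rgs10 has overlapping groups.

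Rgs2, which acts preferentially on Gq alpha subunits, had the widest difference of the set. Its level was 904, 739.5 and 779.6 RPKM in the control libraries and 114.3, 92.02 and 93.22 RPKM in the DHC libraries. The lowest control library was thus well above the highest DHC library, and single-library ratios ran from 6.47 to 9.82. The mean went from 807.7 ± 85.8 to 99.85 ± 12.5 RPKM (SD, n = 3 each), 8.09-fold lower with DHC, with a log2 difference of -3.01 ± 0.10 (SE). By that difference Rgs2 was number 3 from the bottom among the 10665 tested genes. By level it was number 99 from the top in control cells and number 939 in DHC cells. The libraries of a group differed by a coefficient of variation of 10.6% in control and 12.6% in DHC cells, whereas counting error alone, from 18670 to 23975 and 2362 to 2944 reads, gives 0.675% and 1.96%.

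Rgs1, an R4 member known in lymphocytes for dampening chemokine receptor signals, was nearly as abundant as Rgs2 in control cells. Its level was 771, 683.3 and 761.2 RPKM in control and 227.7, 200.2 and 207.2 RPKM in DHC libraries. Again no DHC library reached the control range. The mean went from 738.5 ± 48.0 to 211.7 ± 14.3 RPKM, 3.49-fold lower with DHC (log2 difference -1.80 ± 0.07, SE), which placed Rgs1 at number 17 from the bottom. Because Rgs2 was lower by more than Rgs1, the order of the pair changed between the groups. The Rgs2 to Rgs1 ratio was 1.17, 1.08 and 1.02 in control libraries and 0.502, 0.46 and 0.45 in DHC libraries. Rgs2 led in each control library, though the 3 values of the genes overlapped as groups, and Rgs1 led in each DHC library.

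Rgs13 is an R4 member of mast cells and B cells that is known to limit IgE-driven degranulation through the regulatory subunit of PI3 kinase as well as G protein signals. Its level was 10.69, 7.92 and 8.895 RPKM in control and 4.447, 3.29 and 3.332 RPKM in DHC libraries. The mean was 2.48-fold lower with DHC (9.167 ± 1.4 against 3.69 ± 0.656 RPKM, log2 difference -1.12 ± 0.13). The groups did not overlap, and the ratio of single libraries ran from 1.78 to 3.25. Rgs18, a regulator of Gi and Gq known from platelets and other blood cells, ranked after Rgs1 and Rgs2 in level in both groups. It measured 102.7, 86.93 and 87.26 RPKM in control and 63.83, 55.14 and 54 RPKM in DHC libraries. The mean was 1.6-fold lower with DHC (92.29 ± 9.0 against 57.66 ± 5.38 RPKM, log2 difference -0.67 ± 0.09), also without overlap. Rgs16, an R4 member that immune stimuli induce in many blood cells, had no read in any control library and 2 reads in DHC library 1 alone (0.02738 RPKM). With at most 2 reads it lies below the 3 reads that a count of 0 allows, and no difference was detectable at this depth.

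Rgs3, an R4 member with long and short isoforms, measured 9.596, 11.42 and 10.71 RPKM in control and 7.347, 8.103 and 7.07 RPKM in DHC libraries. Its mean was 1.41-fold lower with DHC (10.58 ± 0.921 against 7.507 ± 0.535 RPKM, log2 difference -0.44 ± 0.09). RefSeq lists 17 transcripts for Rgs3, and the value per gene is over all its exons, so isoforms are not separated. Rgs19, also called GAIP, is an RZ member that acts on Gi and Gz subunits and associates with membranes. It measured 12.76, 11.91 and 14.45 RPKM in control and 6.766, 7.48 and 6.905 RPKM in DHC libraries, 1.85-fold lower on average with DHC (13.04 ± 1.29 against 7.05 ± 0.378 RPKM, log2 difference -0.80 ± 0.08). Neither gene had overlapping groups.

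The R12 genes, Rgs12, Rgs14 and Rgs10, had levels of at most 5.508 RPKM and, on the log2(RPKM + 1) scale, the smallest differences of the measured members. That scale understates low genes. By ratio of means Rgs10 was 1.55-fold higher with DHC, a wider difference than the 1.41-fold of Rgs3. Rgs12, the largest RGS protein of the set, measured 4.912, 5.188 and 5.508 RPKM in control and 4.24, 3.75 and 4.519 RPKM in DHC libraries (log2 difference -0.26 ± 0.09). The span of its gene overlaps a gene model on the other strand. Overlap of their exons was not checked and it is not given whether counting used strand, so mixing of reads between the pair was not tested. Rgs14, a scaffold that binds Ras-family proteins and Gi subunits, measured 1.708, 1.311 and 1.321 RPKM in control and 1.206, 0.7587 and 1.26 RPKM in DHC libraries (log2 difference -0.24 ± 0.15). Both genes had non-overlapping groups, narrowly in Rgs14, where the lowest control library and the highest DHC library were 1.311 and 1.26 RPKM. Rgs10, a small R12 member that acts on Gi and is known from microglia and platelets, was the member with the higher DHC mean. It measured 1.012, 1.308 and 1.949 RPKM in control and 2.324, 1.52 and 2.77 RPKM in DHC libraries, from 26 to 68 reads per library. The groups overlapped, and the log2 difference was 0.40 ± 0.20.

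**Figure D2:**
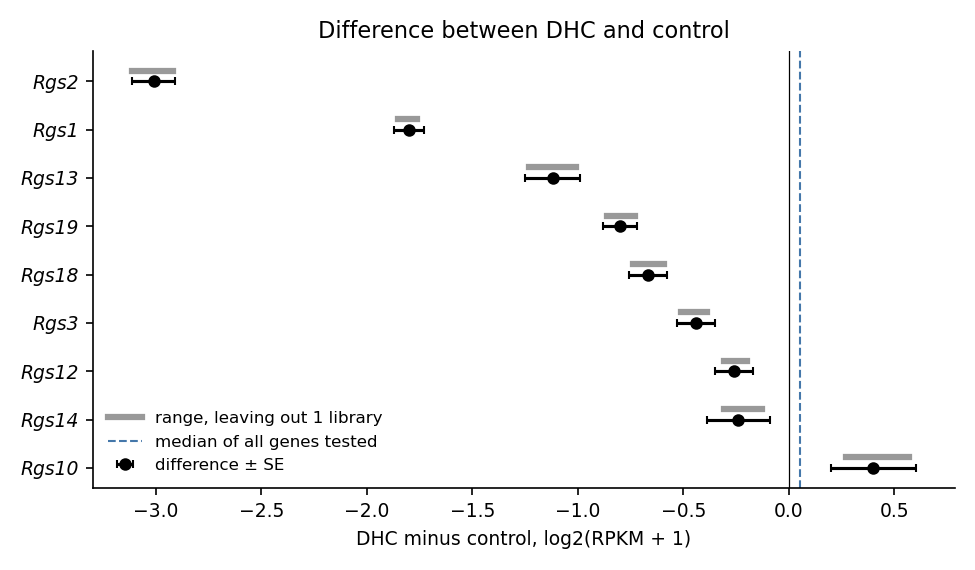
Difference of DHC minus control for the 9 RGS genes at 1 RPKM or more, in log2(RPKM + 1), with the SE of the fit over all genes; grey bars give the range when 1 library is left out, and the dashed line is the median of all tested genes. Values run from -3.01 for Rgs2 to 0.40 for Rgs10, with the dashed line at 0.05.

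The make-up of the RGS pool differed between the groups. Rgs2 held 49.17%, 47.19% and 46.12% of the summed RPKM of the 14 genes in control libraries and 25.55%, 23.86% and 23.63% in DHC libraries. Rgs1 held 41.94%, 43.6% and 45.04% in control and 50.89%, 51.91% and 52.53% in DHC libraries. The share of Rgs18 went from 5.432% ± 0.233 to 14.09% ± 0.344 although its level was lower, because Rgs1 and Rgs2 were lower by more. The other 11 genes together went from 3.547% ± 0.208 to 9.791% ± 0.45. None of these shares overlapped between the groups. In control cells the order by mean RPKM was Rgs2, Rgs1, Rgs18, Rgs17, Rgs19, Rgs3, Rgs13, Rgs12, Rgs14 and Rgs10, in which Rgs2 and Rgs1, Rgs3 and Rgs13, and Rgs14 and Rgs10 overlapped in their libraries. In DHC cells the order was Rgs1, Rgs2, Rgs18, Rgs17, Rgs3, Rgs19, Rgs12, Rgs13, Rgs10 and Rgs14, in which Rgs3 and Rgs19, and Rgs12 and Rgs13, overlapped.

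**Figure D3:**
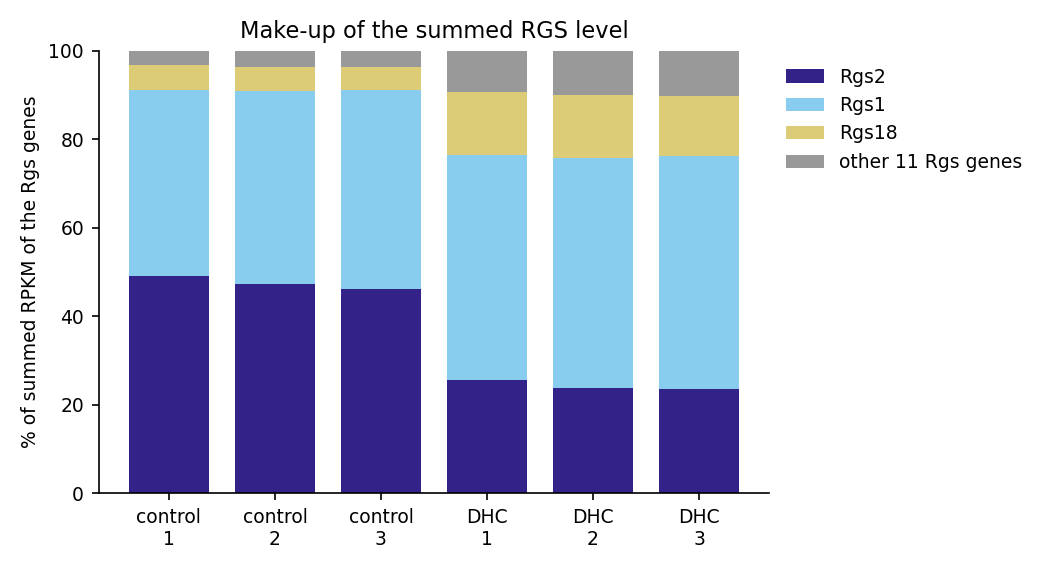
Share of the summed RPKM of the 14 Rgs genes held by Rgs2, Rgs1, Rgs18 and the other 11 genes, in percent, with 1 bar per library. Rgs2 holds 46.12% to 49.17% in control bars and 23.63% to 25.55% in DHC bars, and Rgs1 is the largest block of every DHC bar.

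Of the members, Rgs2, Rgs13, Rgs1 and Rgs18 sit together on chromosome 13 within 745 kb (Rnor_6.0), all on the minus strand. Rgs2 spans chr13:60846308-60849094, Rgs13 chr13:60970247-61003744, Rgs1 chr13:61066153-61070599 and Rgs18 chr13:61565483-61591139. Along the chromosome their log2 differences were -3.01, -1.12, -1.80 and -0.67. Rgs21, an R4 gene between Rgs1 and Rgs18, was at 0.1426 RPKM in control library 1 and at 0 in the other 5 libraries. A pair of further gene models in the interval, identified by clone names only, differed by 0.02 and -0.12 and did not pass (limma).

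Within 1 Mb of this interval, 7 genes had a row, all on the side of Rgs2, and 5 were tested, of which 1 was lower and 0 higher. No gene with a row lay within 1 Mb beyond Rgs18. That gene was Cdc73, a subunit of the PAF1 transcription elongation complex, which fell from 37.85 ± 0.345 to 27.32 ± 0.484 RPKM (log2 difference -0.46 ± 0.04, limma adjusted p = 0.000295). Uchl5, a deubiquitinase of the proteasome 242 kb from Rgs2 and its nearest tested neighbour on that side, measured 28.92 ± 2.71 and 29.42 ± 0.592 RPKM (adjusted p = 0.791). Rgs16 lies on the same chromosome outside the interval, 38.8 kb from Rgs8, which had a value above 0 in control library 1 alone.

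**Figure D4:**
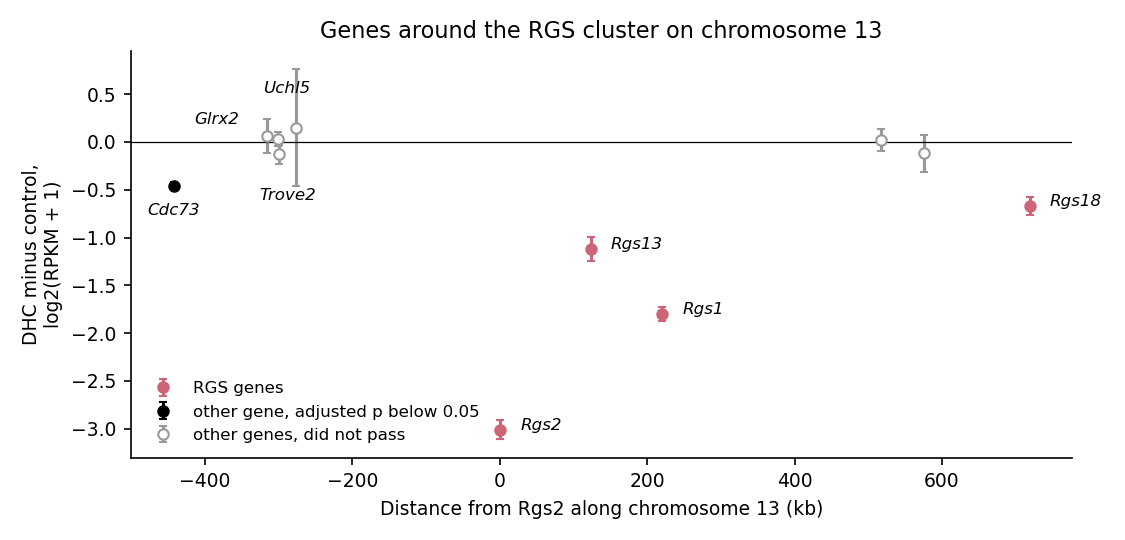
Difference of DHC minus control in log2(RPKM + 1), with SE, for the tested genes around the RGS genes of chromosome 13, against distance from Rgs2 in kb. Rgs2, Rgs13, Rgs1 and Rgs18 lie at -3.01, -1.12, -1.80 and -0.67, Cdc73 at -0.46, and the open points are genes that did not pass.

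The promoters of these 4 neighbours are shown because the genes share a locus and a direction but differ in size of change and in sequence. Each is the 250 bases before the RefSeq start site on the assembly GRCr8, whose coordinates differ from the Rnor_6.0 positions above, written 5′ to 3′ on the gene's strand. Capitals mark matches, on either strand, of 6 motifs: the AP-1 motif TGANTCA, the core of a cAMP response element TGACG, the GATA forms AGATAA and TGATAA, the CCAAT box CCAAT and the TATA box TATAAA.
Rgs2 promoter, chr13:58352667-58352916, minus strand: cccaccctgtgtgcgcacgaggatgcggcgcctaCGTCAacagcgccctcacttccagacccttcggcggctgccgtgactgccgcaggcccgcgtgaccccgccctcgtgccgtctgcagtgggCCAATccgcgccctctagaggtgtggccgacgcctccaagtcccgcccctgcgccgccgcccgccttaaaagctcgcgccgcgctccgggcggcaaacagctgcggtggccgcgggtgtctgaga
Rgs13 promoter, chr13:58505923-58506172, minus strand: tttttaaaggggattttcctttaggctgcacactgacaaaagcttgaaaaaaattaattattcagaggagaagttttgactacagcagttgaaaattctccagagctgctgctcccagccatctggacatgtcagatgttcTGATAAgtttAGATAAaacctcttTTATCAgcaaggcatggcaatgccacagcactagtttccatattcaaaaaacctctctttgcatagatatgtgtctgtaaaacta
Rgs1 promoter, chr13:58573188-58573437, minus strand: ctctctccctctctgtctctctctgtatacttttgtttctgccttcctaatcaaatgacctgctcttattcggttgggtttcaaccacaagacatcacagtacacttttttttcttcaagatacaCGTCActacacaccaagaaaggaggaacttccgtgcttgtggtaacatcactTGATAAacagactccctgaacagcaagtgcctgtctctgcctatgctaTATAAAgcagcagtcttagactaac
Rgs18 promoter, chr13:59066343-59066592, minus strand: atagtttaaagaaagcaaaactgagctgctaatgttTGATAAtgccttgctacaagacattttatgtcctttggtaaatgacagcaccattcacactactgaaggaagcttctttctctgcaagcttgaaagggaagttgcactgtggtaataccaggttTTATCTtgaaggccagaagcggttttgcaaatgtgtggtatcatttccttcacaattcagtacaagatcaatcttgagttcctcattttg

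Rgs2 has a GC-rich promoter of 72.4% GC with 33 CpG, whereas those of Rgs1, Rgs18 and Rgs13 have 42.8%, 38.4% and 37.6% GC with 3, 1 and 0 CpG. The median of 33469 rat promoters of this length was 51.2% GC and 5 CpG. TGACG was present in Rgs2 and Rgs1 as its reverse complement CGTCA, with the first printed base at -216 and -125. On either strand it was present in 18.2% of all promoters. A GATA form was present in Rgs13 (-109, -99 and -85), Rgs18 (-214 and -90) and Rgs1 (-73), and 16.9% of all promoters hold at least 1 of the 2 forms. TATAAA was found at -25 in Rgs1 (12.9% of all promoters), CCAAT at -125 in Rgs2 (34%), and TGANTCA in none of the 4 (6.34%). The AGATAA and TGATAA forms share the letters GATAA but cannot match at the same place. Among the other members, Rgs12 held the AP-1 motif, Rgs16 a CCAAT box, Rgs3 a cAMP response element core, a GATA form and a TATA box, and Rgs10, Rgs14 and Rgs19 held none of the 6. A match describes these letters in this window only, and no binding was measured.

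The genes nearest to the other members mostly did not pass. Rgs12, Rgs10 and Rgs19 were flanked by Hgfac and Htt (0.07 and 0.21), Armc5 and Tial1 (0.19 and 0.10), and Prpf6 and Pcmtd2 (0.01 and 0.12), with limma adjusted p from 0.0999 to 0.836. Htt, the huntingtin gene, passed under limma-voom on the recovered reads alone among the alternatives (0.28, adjusted p = 0.00761). Rgs14 had Lman2 at 5.9 kb (0.10, adjusted p = 0.288) on one side. On its other side, at 56.3 kb, Grk6, a kinase with an RGS domain that phosphorylates active receptors, fell from 13.33 ± 0.781 to 9.211 ± 0.408 RPKM (log2 difference -0.49 ± 0.07, adjusted p = 0.00164). Beyond Rgs3, at 617 kb, Akna, an AT-hook protein, fell from 17.07 ± 1.05 to 9.423 ± 0.817 RPKM (-0.80 ± 0.08, adjusted p = 0.000331). Around Rgs16, Npl did not pass (0.01, adjusted p = 0.959) and Glul fell by 0.22 (adjusted p = 0.0353). The call of Glul ended without each of control libraries 1, 2 and 3 and DHC libraries 2 and 3 in turn, with adjusted p from 0.0521 to 0.12.

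The 4 neighbours on chromosome 13 were also alike in which library was highest within each group, as were genes on other chromosomes. Rgs1, Rgs2, Rgs13 and Rgs18 were each highest in library 1 of both groups, 4 of the 9 measured members (44.4%), beside 2422 of 10665 genes (22.7%). Library 1 lay above its group's mean by 0.17 in control and 0.20 in DHC cells for Rgs2, and by 0.21 and 0.23 for Rgs13, in log2 units. For Rgs18 these deviations were 0.16 and 0.15, and for Rgs1 0.06 and 0.11, with control library 3 of Rgs1 close behind at 0.05. They are small beside the differences between the groups of these 4 genes. Without both libraries numbered 1, an alternative chosen after the data were seen, the differences between the groups were -3.02 for Rgs2, -1.82 for Rgs1, -1.12 for Rgs13 and -0.66 for Rgs18. What sets library 1 apart is not given in the labels.

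The genes whose profile over the 6 libraries was closest to the 3 members with the widest differences were ranked by the Euclidean distance of centred log2(RPKM + 1) values. Closest to Rgs2 were Gfi1, a zinc finger repressor of blood cell development, at a distance of 0.41, Ccdc184 at 0.79 and Ptgs2, the inducible cyclooxygenase, at 0.92. Closest to Rgs1 were Gpr171, a receptor of the P2Y-like group, at 0.17, Gnaz, the alpha subunit of Gz, at 0.18 and Cnksr3, a scaffold of kinase signalling, at 0.23. Closest to Rgs13 were the cytokine gene Lif at 0.12, Tnfsf8, which encodes the CD30 ligand, at 0.18 and Sla, an adaptor of immune receptor signalling, at 0.19. Gfi1 measured 121.8 RPKM in control and 12.16 RPKM in DHC cells on average, Gpr171 40.94 and 11.88 RPKM, and Lif 16.66 and 7.036 RPKM. Tnfsf8 averaged 2.693 RPKM in control and 0.7999 RPKM in DHC cells, and Sla 2.549 and 0.7508 RPKM. These 2 genes passed the filter only through the control group. Their means were 3.37-fold and 3.4-fold lower with DHC, beside 2.48-fold for Rgs13, and the log2(RPKM + 1) scale understates such low genes. Among the members themselves the closest pair was Rgs12 and Rgs14, at 0.31, and Rgs2 and Rgs10 lay farthest apart, at 4.23. The closeness of the first pair holds for the log2(RPKM + 1) scale. With a pseudocount of 0.1 the difference of Rgs14 was -0.42 rather than -0.24, whereas that of Rgs12 ran from -0.33 to -0.20 over 17 settings. With 6 libraries in 2 groups, a gene with a similar difference between the groups has a small distance.

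Among RGS domain genes outside the set, 17 of 30 listed had a row and 11 were tested, of which 2 were lower and 3 higher with DHC, with a median of 0.11. This list and those below were drawn up by role, with earlier results of these data known. Its shares of 18.2% lower and 27.3% higher stand beside 16.1% and 18.5% of all tested genes. Rgs17, an RZ member related to Rgs19 that acts on Gz and Gi, lies at chr1:42492761-42587721 and measured 19.95, 18.16 and 19.27 RPKM in control and 15.19, 13.35 and 14.16 RPKM in DHC libraries. It fell 1.34-fold on average (log2 difference -0.40 ± 0.07, limma adjusted p = 0.00356), with no overlap of the groups, and Grk6 was the other gene that fell. Snx13 and Snx14, sorting nexins with an RGS domain, rose by 0.23 and 0.31 (adjusted p = 0.0184 and 0.0342), and Akap10, an anchor of protein kinase A, rose by 0.27 (adjusted p = 0.0495). None of those 3 passed when scaled by trimmed means or without either control library 2 or DHC library 2, and the count that rose was 1 without control library 3 or DHC library 1. Adrbk1, the receptor kinase GRK2 and the most abundant gene of the list, measured 22.05 ± 0.655 and 21.48 ± 0.941 RPKM (adjusted p = 0.645). Rgs8, Rgs9 and Rgs21 were at or below 0.1426 RPKM in every library.

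Of 68 G protein coupled receptors listed, 45 had a row and 13 were tested, of which 9 fell (69.2%) and 2 rose (15.4%), beside 16.1% and 18.5% of all tested genes. The median log2 difference of the 13 was -0.77, or -1.26 with a pseudocount of 0.1, and that of all 45 without a filter was -0.04. P2ry10 and Lpar6, among the 9, averaged 1.918 and 1.7 RPKM in control but 0.6242 and 0.5923 RPKM in DHC cells, so they passed the filter only through the control group, and the count of lower calls is partly fixed by that filter. P2ry14, a receptor for UDP-sugars and the most abundant of the list, fell from 62.97 ± 2.94 to 22.08 ± 1.41 RPKM (-1.47 ± 0.06, limma adjusted p = 7.79e-06). Ackr3, an atypical receptor that scavenges the chemokine CXCL12, fell from 45.09 ± 1.99 to 9.025 ± 1.63 RPKM (-2.21 ± 0.11, adjusted p = 1.46e-05). Cxcr4, the signalling receptor for the same chemokine, fell from 6.031 ± 0.794 to 1.049 ± 0.429 RPKM (adjusted p = 0.000196). Adora2a, a Gs-coupled adenosine receptor, fell from 5.067 ± 0.494 to 1.122 ± 0.311 RPKM (adjusted p = 0.000163). The count of 2 that rose became 0 under both other scalings and without any 1 control library or DHC library 2 or 3.

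Of 33 G protein subunits, 20 were tested, of which 7 fell (35%) and 4 rose (20%), beside 16.1% and 18.5% of all tested genes. Their median was -0.07. Gnaz, a slow GTPase of the Gi class on which the RZ members Rgs17 and Rgs19 act, measured 62.39, 57.01 and 58.18 RPKM in control and 19.25, 14.29 and 16.15 RPKM in DHC libraries. Its mean fell 3.57-fold (log2 difference -1.79 ± 0.10, adjusted p = 2.41e-05), a difference close to that of Rgs1. Gna15, a Gq-class alpha subunit of blood cells, fell from 4.585 ± 0.515 to 1.616 ± 0.286 RPKM (-1.10 ± 0.12, adjusted p = 0.000498), and Gnai3, a Gi alpha subunit, from 124.1 ± 9.77 to 88.99 ± 3.03 RPKM (-0.47 ± 0.06, adjusted p = 0.00119). Gng12, a gamma subunit and the most abundant of the list, fell from 365.9 ± 15.7 to 248.3 ± 9.48 RPKM (adjusted p = 0.000174).

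Of 22 effectors tested, 9 fell (40.9%) and 3 rose (13.6%), beside 16.1% and 18.5% of all tested genes. Their median was -0.20. The list holds phospholipases, cyclases, phosphodiesterases and kinases with their subunits, and the transcription factors Creb1 and Crem. Creb1 and Crem, among the 9, fell by 0.22 and 0.29 (limma adjusted p = 0.0371 and 0.048). Neither passed without control library 1, 2 or 3 or DHC library 2 or 3, each left out in turn. Pde4b, among the 9, averaged 1.607 RPKM in control but 0.9052 RPKM in DHC cells. It passed the filter only through the control group, so the count that fell is partly fixed by that filter. Plcb3, a phospholipase C driven by Gq and by beta-gamma subunits, fell from 25.95 ± 1.82 to 16.04 ± 0.509 RPKM (-0.66 ± 0.07, limma adjusted p = 0.000307). The cAMP phosphodiesterases Pde3b and Pde4d fell by 0.83 and 0.76 (adjusted p = 0.000757 and 0.000877). Prkar2a, a regulatory subunit of protein kinase A, rose by 0.23 (adjusted p = 0.0113), and Prkar1a, the most abundant, measured 611.2 ± 11.2 and 570.8 ± 6.11 RPKM (adjusted p = 0.075). The count of effectors that fell was 4, 3, 3 and 4 without control library 1, control library 2, DHC library 2 and DHC library 3, and Prkar1a passed under both other scalings and with a replicate block. The count that rose was 1 without control library 2 or any 1 DHC library. Of 14 arrestins and other modulators tested, 3 fell (21.4%) and 2 rose (14.3%), shares near those of all tested genes, the latter count being 1 without any 1 library except DHC library 2. Arrdc2, among the 2 that rose, averaged 0.8462 RPKM in control and 1.53 RPKM in DHC cells. It passed the filter only through the DHC group, so that count too is partly fixed by the filter. Ric8a, a chaperone and exchange factor of alpha subunits, fell from 8.242 ± 0.147 to 4.881 ± 0.24 RPKM (adjusted p = 0.000449). Gpsm2 and Gpsm3, which bind inactive Gi alpha subunits through the same kind of motif as Rgs12 and Rgs14, moved in opposite directions, by 0.51 and -0.54 (adjusted p = 0.00108 and 0.00308). Pdcl3, a phosducin-like protein, fell by 0.22 (adjusted p = 0.00462).

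**Figure D5:**
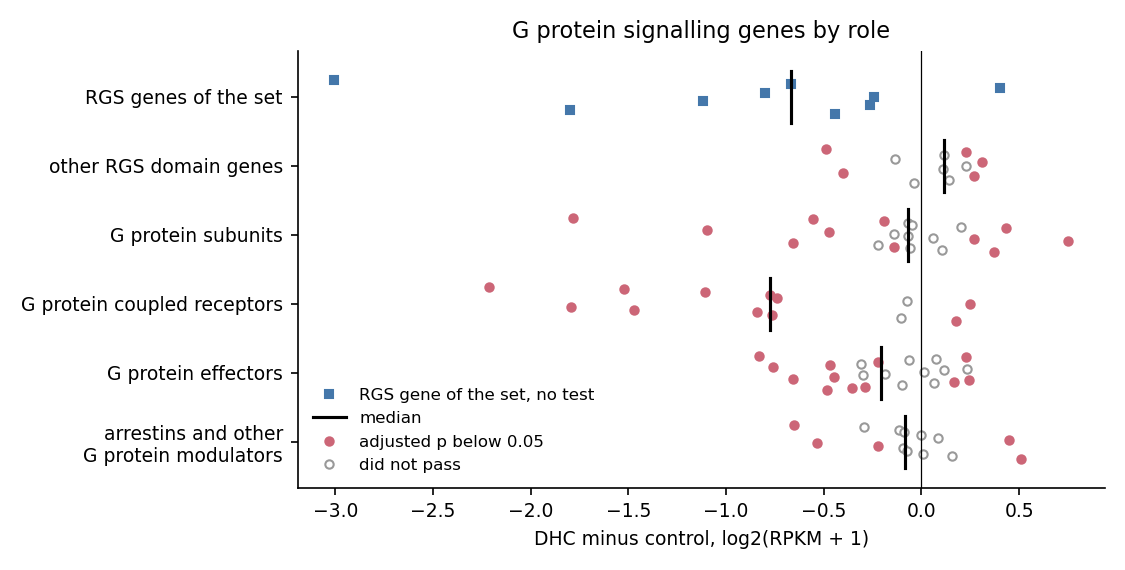
Difference of DHC minus control, in log2(RPKM + 1), for each measured RGS gene of the set (squares, no test) and each tested gene of 5 lists of G protein signalling genes by role (circles, filled where the limma adjusted p is below 0.05); vertical bars are list medians. The medians are -0.67 for the RGS genes, 0.11 for other RGS domain genes, -0.07 for subunits, -0.77 for receptors, -0.20 for effectors and -0.08 for modulators.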

How the data were processed

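Total RNA of 6 RBL-2H3 libraries, 3 control and 3 DHC by their titles, was sequenced. The authors deposited 1 table of 18286 rows with exon coordinates, exon lengths and 1 RPKM value per library, per the file headers, and the unit was checked from the values: 100% of values came out as whole reads within 0.01 read. The submitters' processing notes name Rnor_6.0 as build and, as tools, edgeR 3.12.1, Trimmomatic 0.36 and featureCounts (Subread 1.5.1). The aligner, annotation release and strand setting were not given in the sources used here. RPKM scales each library to its own read total, so abundant genes that change shift the others slightly.

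The 2 rows of 1 repeated identifier were left out. Genes whose mean reached 1 RPKM were tested on log2(RPKM + 1) with limma 3.58.1 (R 4.3.3, trended variance) and Benjamini-Hochberg adjustment at 0.05, all 6 libraries, group only. Trended limma was tested on simulated data. The members and lists were chosen with earlier results of these data known. Besides all members, the text names by rule up to 4 genes per list with the lowest p past the threshold and no overlap, each list's most abundant gene, listed Rgs genes, the nearest measured gene on each side of a member, and the 3 closest profiles of 3 members. Gene models with only a clone name are counted, not named. Cdc73, P2ry10, Lpar6, Pde4b, Arrdc2, Creb1, Crem and the protease genes of the mast cell list were named after their values were seen. Alternatives were scaling by trimmed means or median of ratios, pseudocounts of 0.5 and 0.1, other filters, limma-voom on the recovered reads, robust empirical Bayes, a replicate block, an adjusted p of 0.01 and leaving out each library. Promoters came from RefSeq (GRCr8), in which all 10 members were matched. Other steps used Python 3.11.15, pandas 2.3.3, numpy 2.4.6 and matplotlib 3.10.9. Read totals of 29084976 to 34170922 limit counting precision.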

Additional observations from a re-analysis of the deposited data

How the results depend on the processing

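Over 17 settings, the reported one included, log2 differences ran from -3.11 to -2.92 for Rgs2, -1.86 to -1.76 for Rgs1, -1.32 to -1.01 for Rgs13 and 0.24 to 0.61 for Rgs10, given as a description because this contrast chose the members. Same-numbered libraries deviated with correlations of 0.23, -0.05 and 0.08 and not every library correlated best with its own number, so they were not treated as paired. The second principal component (12.8% of variance) did order the numbers alike in both groups, with libraries 1, 2 and 3 at 12.1, -2.5 and -10.7 in control and 11.5, -2.1 and -8.4 in DHC cells. With the replicate block 1906 genes were lower and 2426 higher. Depth limits Rgs16, with at most 2 reads, and 3 libraries per group limit every test.

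At an adjusted p of 0.01, 1076 genes were lower and 873 higher, with 3 list genes higher over all lists. By list at 0.01, 0 other RGS domain genes, 2 subunits, 0 receptors, 0 effectors and 1 modulator were higher, and 3 effectors lower. Scaling by trimmed means gave 1284 genes higher and, over all lists, 6 higher (0 other RGS domain genes, 0 receptors and 1 effector); median of ratios gave 7 (1, 0 and 1). Without a filter, 9 list genes were higher (1 other RGS domain gene and 1 effector). limma-voom called 1 receptor higher. Leaving out 1 library gave 1200 to 1746 genes higher, 6 to 10 list genes higher, 0 to 4 other RGS domain genes higher, 0 to 1 receptors higher, 3 to 8 effectors lower, 1 to 2 effectors higher and 1 to 2 modulators higher. Without both libraries numbered 1, 9 list genes, 1 receptor and 1 modulator were higher.

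Differences near 0 changed sign for 4 neighbours that did not pass. Scaling by trimmed means gave Glrx2 -0.01, Npl -0.03, Prpf6 -0.05 and Uchl5 -0.04, and median of ratios gave Npl -0.02, Prpf6 -0.04 and Uchl5 -0.03. Leaving out 1 library gave -0.13 to 0.20 for Glrx2, -0.06 to 0.09 for Npl, -0.01 to 0.05 for Prpf6 and -0.03 to 0.10 for Uchl5, and leaving out both numbered 1 gave Npl -0.00. The cause of these changes was not tested.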

Other observations

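Ptgs2, among the closest profiles to Rgs2, and Pla2g4a, the nearest measured gene beyond Rgs18, lie near each other on chromosome 13 (chr13:67351087-67359335 and chr13:66988937-67206693, Rnor_6.0). Pla2g4a lies 5.4e+03 kb from Rgs18, far outside the interval of the RGS genes. Ptgs2 and Pla2g4a encode successive enzymes of prostaglandin synthesis, the inducible cyclooxygenase and the cytosolic phospholipase A2 that releases its substrate. Pla2g4a fell from 35.52 ± 3.25 to 21.46 ± 0.563 RPKM (log2 difference -0.70 ± 0.07, limma adjusted p = 0.000348), and the mean of Ptgs2 was 65.96 RPKM in control and 13.04 RPKM in DHC cells. Gnb5, the beta subunit that pairs with the R7 class of RGS proteins, rose from 1.006 ± 0.124 to 2.417 ± 0.717 RPKM (0.75 ± 0.16, adjusted p = 0.00998), while Rgs9, an R7 gene, was at most 0.1277 RPKM in any library. Both pairs were picked after their values were seen.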
